A study of Mus musculus with 6 samples.

Results

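The transcripts examined here were those of 9 genes for the metabolism and transport of the branched-chain amino acids (BCAAs) leucine, isoleucine and valine, out of 36083 genes in the deposited table. They were chosen by function, with earlier results of these data known. The 9 were Bcat1, Bcat2, Bckdha, Bckdhb, Dbt, Bckdk, Slc7a5, Slc3a2 and Slc43a1, and all were found once in the table by their Ensembl identifiers. The cells were lineage-negative (Lin-) cells of blast crisis chronic myeloid leukemia (bcCML), sorted from the spleens of recipient mice. KLS cells, a Kit+ Lin- Sca1+ progenitor fraction, came from WT or Sdc1-/- mice of B6 background, were infected with retroviruses for BCR-ABL and NUP98-HOXA9, and were transplanted, per the labels into NSG mice. Both groups thus carry both oncogenes, and they differ by label in Sdc1, whose allele was made by disrupting the signal peptide of syndecan-1. Each group has 3 libraries. The labels name NSG recipients, whereas the study's general methods for bcCML name irradiated CD45.1 mice. The labels give neither the age nor the sex of the mice, and the study's documents give differing age ranges and the use of both sexes for its mice as a whole. A legend of the study calls the 3 WT libraries technical replicates, and no source used here gives the status of the Sdc1-/- libraries. The SDs and p-values therefore measure the spread between these libraries, which for WT is technical, and do not cover variation between mice or leukemias.

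BCAAs enter cells through the large neutral amino acid transporters. Slc7a5 encodes LAT1, the light chain that carries leucine in exchange for glutamine, and Slc3a2 encodes CD98, the heavy chain that holds LAT1 at the membrane, while Slc43a1 encodes LAT3, a facilitative carrier. Inside the cell, the aminotransferases Bcat1 (cytosolic) and Bcat2 (mitochondrial) pass the amino group reversibly between BCAAs and glutamate. The branched-chain ketoacids are then decarboxylated in mitochondria by a complex of Bckdha and Bckdhb, the α and β chains of E1, with Dbt, the E2 core, and Bckdk is the kinase that turns the complex off by phosphorylating E1α. In myeloid leukemia the pathway is known above all for BCAT1, which is active in blast crisis CML and whose transcript is bound by the RNA-binding protein Musashi-2.

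Values are TPM, a length-corrected share of the transcripts, from kallisto, rescaled between libraries by the authors, so that library sums ran from 944973 to 1058263. The number of reads is unknown and no counting interval can be given. Sdc1 itself read 1.75, 1.21 and 1.51 under the WT label against 3.85, 3.80 and 4.12 under the Sdc1-/- label, higher where the label says it was deleted. The allele was made to keep the protein from the surface, and gene-level values do not show whether a transcript is intact, so a retained transcript and an exchange of the labels cannot be told apart here. An exchange would turn every direction given, and groups are named by their labels throughout. The Y-linked genes Ddx3y, Eif2s3y, Kdm5d and Uty were at 0.25 or less in every library labelled WT and between 6.26 and 49.8 in those labelled Sdc1-/-, so a difference in the sex of the cells and the Sdc1 label cannot be told apart. Of the 12155 genes that averaged 1 or more, 60.7% differed between the groups at an adjusted p under 0.05 (limma on log2(value + 1), Benjamini-Hochberg over all genes tested), 29.3% upward and 31.3% downward under the Sdc1-/- label. Markers of maturing myeloid cells moved with the label. All 12 neutrophil markers were lower, their summed level falling from 13660 to 14570 in WT to 5120 to 5243 in Sdc1-/-. Of 9 tested monocyte and macrophage markers 7 were lower and 1, Cx3cr1, was higher (0.27 in log2 units). Their sums were 550 to 572 against 251 to 259. Of 9 erythroid markers 6 were lower and 2, Klf1 and Epor, were higher (0.21 and 0.14 in log2 units). Their sums were 9626 to 10310 against 5395 to 5771. Of 8 stem and progenitor markers 4 were higher and 3 lower (summed level 327 to 346 against 370 to 374), with Gata2 the most abundant at 160 and 166. The T cell list was low (sums of 7.88 to 9.78 and 16.3 to 17.0, mostly Lck), as was the B cell list (2.63 to 3.37 over all libraries). The NK cell list stood at 342 to 353 and 286 to 299, nearly all of it Nkg7, and the stromal and endothelial list at 41.3 to 43.4 and 40.3 to 40.7. The latter was mostly Col1a2 (means of 18.8 and 23.2), which was called higher, and Pecam1 (15.3 and 12.9) and Pdgfrb (7.31 and 4.18), both called lower. Its members Cdh5, Kdr, Col1a1 and Col3a1 stayed at 0.12 or below in every library. Of 5 tested megakaryocyte markers 4 were lower and 1, Pf4, the most abundant, was higher, with sums of 486 to 513 and 495 to 508. In the T cell list Cd3e stayed at 0.04 or below in every library, but Lck averaged 6.89 and 14.1 and Trac 1.09 and 1.65. In the NK cell list Ncr1 also stayed at 0.04 or below, but Klrb1c averaged 7.0 and 6.4, beside the high Nkg7. In bulk RNA, fewer cells of a type and less RNA per cell cannot be told apart, and the part of the cell makeup in the values that follow was not tested.

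For the 2 genes of the set that rose, Bcat1 and Slc43a1, the promoter sequence is shown from RefSeq (GRCm38.p6), 250 bases before to 50 bases after a transcript start, 5′ to 3′ on the strand of the gene, to show what lies at their starts. Of the 9 genes, 7 had 10 such windows in the table, and Slc7a5 and Dbt had none. Capitals mark the E-box CACGTG, the core letters that Myc and related factors bind. RefSeq has 2 starts for Bcat1, of which the one upstream is shown because it lies at the annotated start of the gene. That Bcat1 window lies at chr6:145076108-145076407 on the minus strand and the Slc43a1 window at chr2:84840073-84840372 on the plus strand.
Bcat1: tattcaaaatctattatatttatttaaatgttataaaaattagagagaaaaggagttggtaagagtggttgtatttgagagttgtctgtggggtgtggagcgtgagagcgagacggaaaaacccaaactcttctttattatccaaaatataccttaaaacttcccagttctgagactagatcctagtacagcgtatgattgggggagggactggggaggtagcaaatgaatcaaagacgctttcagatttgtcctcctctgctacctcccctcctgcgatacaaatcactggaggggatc
Slc43a1: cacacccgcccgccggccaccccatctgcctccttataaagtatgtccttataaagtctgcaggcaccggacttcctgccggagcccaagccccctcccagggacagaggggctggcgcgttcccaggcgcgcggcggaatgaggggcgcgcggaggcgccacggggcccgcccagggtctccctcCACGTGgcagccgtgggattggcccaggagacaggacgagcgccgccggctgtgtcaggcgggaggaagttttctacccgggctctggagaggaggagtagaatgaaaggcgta
CACGTG reads the same on both strands and occurred in 7.15% of the 32851 promoter windows of the mouse. Among the 10 windows of the set it occurred in that of Slc43a1 only. The letters TGATGNAAT, the form of the ATF4 element searched on both strands, were in 0.965% of all promoter windows and in none of the 10. With a single match there was no overlap of motifs, and a match or its absence in these windows says nothing of binding.

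Of the 9 transcripts, 7 differed between the groups, 77.8% beside 60.7% of all genes tested: Bcat1 and Slc43a1 were higher (29.3% of all genes), and Bcat2, Bckdha, Dbt, Slc7a5 and Slc3a2 were lower in the libraries labelled Sdc1-/- (31.3% of all genes). In the same 7 the values of the groups did not overlap, beside 66.7% of all genes. The median log2 fold change of the 9 was -0.33, against -0.0097 for all genes. In the libraries labelled WT the order of levels per length was Slc3a2, Slc7a5, Bcat2, Bckdk, Bckdha, Slc43a1, Bckdhb, Dbt and Bcat1, where only the neighbours Bcat2 and Bckdk overlapped. In the libraries labelled Sdc1-/- the order was the same but for Bckdk, which stood above Bcat2, and no neighbours overlapped.

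**Figure D1:**
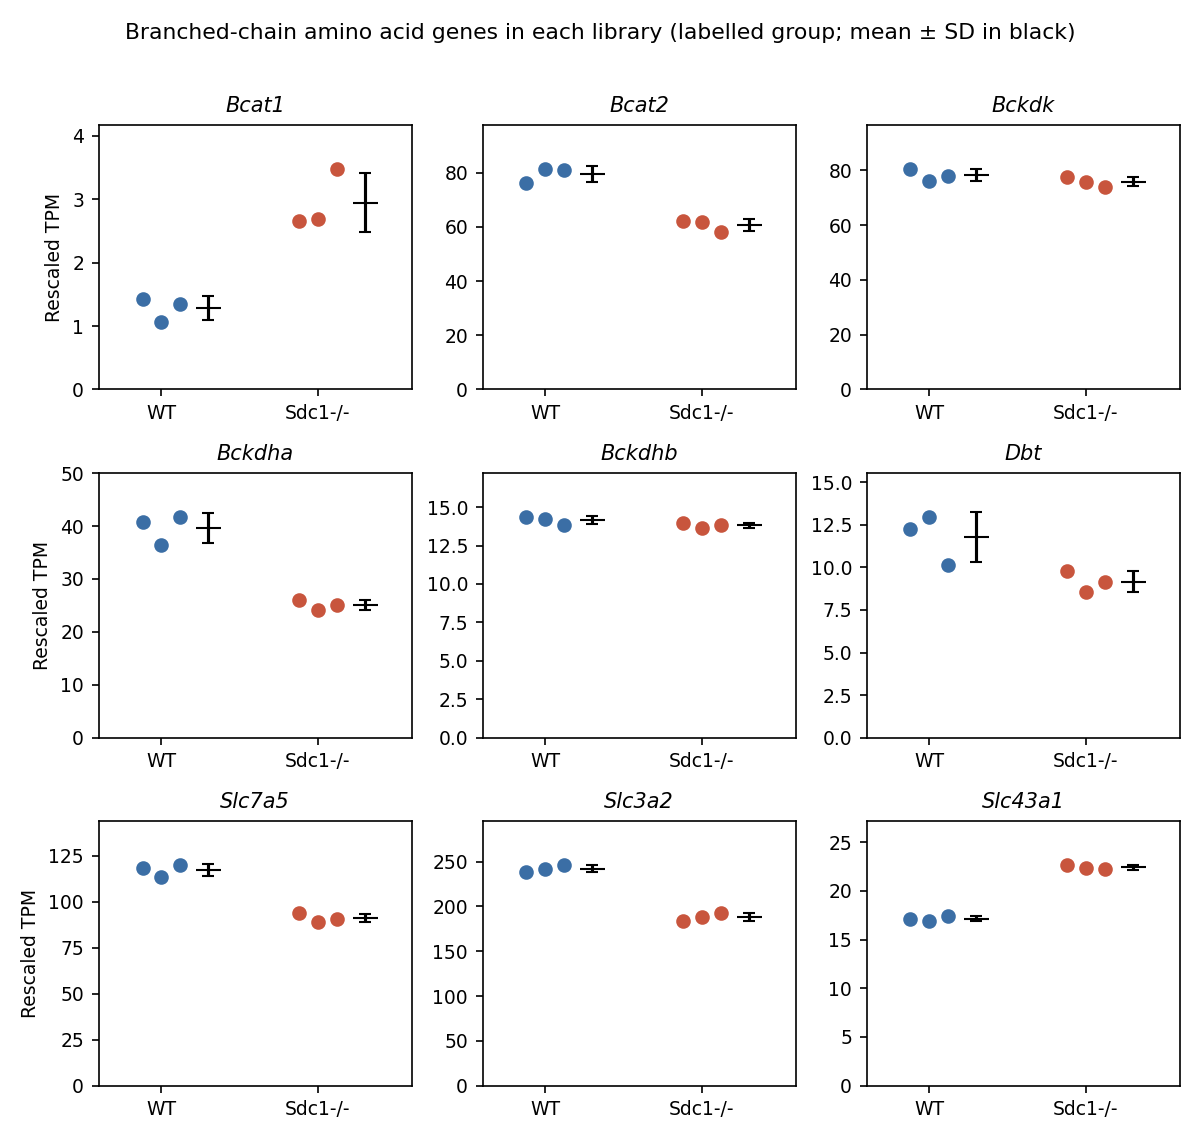
Level of each of the 9 genes (rescaled TPM, linear axes from 0) in the 3 libraries labelled WT and the 3 labelled Sdc1-/-. Points are libraries and the black bars the mean ± SD. Bcat1 and Slc43a1 lie higher in Sdc1-/-, Bckdhb and Bckdk overlap, and the other 5 lie lower.

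Bcat1, the cytosolic aminotransferase (ENSMUSG00000030268, chromosome 6, 144993835 to 145076184, minus strand), was the lowest of the 9 in level and had the largest change. It read 1.43, 1.07 and 1.35 in WT against 2.66, 2.69 and 3.48 in Sdc1-/-. The groups did not overlap, with a gap of 1.23, and the third library labelled Sdc1-/- stood above the other two. The means were 1.28 ± 0.19 and 2.94 ± 0.46 (SD, n = 3 per group), 2.29-fold apart. On the log2(value + 1) scale the change was 0.79 ± 0.11 (SE; limma adjusted p = 7.2e-04), which ranked above 91.1% of all genes tested in size. That scale understates the change of so low a gene, and with a pseudocount of 0.1 it was 1.14. Without the third library labelled Sdc1-/- it was 0.69 (limma adjusted p = 0.0019).

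Bcat2, the mitochondrial aminotransferase (ENSMUSG00000030826, chromosome 7, 45570153 to 45589711, plus strand), went the other way. Its values were 76.1, 81.5 and 81.2 in WT against 62.4, 61.9 and 58.1 in Sdc1-/-, groups that lay 13.7 apart. The means were 79.6 ± 3.04 and 60.8 ± 2.33 (SD, n = 3 per group), or -0.38 ± 0.043 (SE) in log2 units (limma adjusted p = 2.8e-04). Bcat1 thus made up a small share of the summed aminotransferase level in every library. That share was 1.85%, 1.30% and 1.63% in WT and 4.09%, 4.17% and 5.65% in Sdc1-/-. It had a mean of 1.59% ± 0.28 and 4.64% ± 0.88 (SD, n = 3 per group), without overlap between the groups (two-sided exact permutation p = 0.1, the smallest that 3 against 3 libraries allow). A share within a library does not depend on the scaling between libraries.

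In the ketoacid dehydrogenase complex the transcripts of the chains did not change alike. Bckdha, the E1α chain that carries the regulated phosphorylation site (ENSMUSG00000060376, chromosome 7, 25629946 to 25658981, minus strand), read 40.8, 36.3 and 41.7 in WT and 26.1, 24.2 and 25.1 in Sdc1-/-. All libraries labelled Sdc1-/- were below all labelled WT, by 10.2 or more. Its mean fell from 39.6 ± 2.89 to 25.1 ± 0.97 (SD, n = 3 per group), or -0.63 ± 0.060 (SE) in log2 units (limma adjusted p = 1.2e-04). The gene B3gnt8 overlaps it on the opposite strand, at a mean of 2.02, and whether the counting used strand is not given in the sources used here.

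Bckdhb, the E1β chain that pairs with Bckdha (ENSMUSG00000032263, chromosome 9, 83925145 to 84124240, plus strand), had values of 14.4, 14.2 and 13.8 in WT and 14.0, 13.6 and 13.8 in Sdc1-/-. The groups overlapped, and the log2 fold change was -0.03 (95% confidence interval -0.12 to 0.06, limma adjusted p = 0.50). The ratio of Bckdha to Bckdhb within a library was 2.84, 2.55 and 3.02 in WT and 1.87, 1.77 and 1.82 in Sdc1-/-. Its means were 2.80 ± 0.23 and 1.82 ± 0.050 (SD, n = 3 per group), and the groups did not overlap (two-sided exact permutation p = 0.1, the smallest possible).

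Dbt, the E2 core that takes the acyl group over from E1 (ENSMUSG00000000340, chromosome 3, 116513070 to 116549981, plus strand), read 12.3, 12.97 and 10.2 in WT and 9.77, 8.54 and 9.15 in Sdc1-/-. The groups were only 0.40 apart, with the third library labelled WT close to the first labelled Sdc1-/-. Its log2 change, -0.33 ± 0.092 (SE), reached a limma adjusted p of 0.017, the weakest of the 7. The call was lost without the first library labelled WT (limma adjusted p = 0.055), without the second labelled WT (adjusted p = 0.051) and without the second labelled Sdc1-/- (adjusted p = 0.061). Over all alternatives the adjusted p ran from 0.0031 to 0.10.

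Bckdk, the inhibitory kinase of the complex (ENSMUSG00000030802, chromosome 7, 127904082 to 127910221, plus strand), was level with Bcat2 in WT. It read 80.6, 76.3 and 77.9 in WT and 77.6, 75.9 and 74.1 in Sdc1-/-, which overlapped. The log2 fold change was -0.04 (95% confidence interval -0.13 to 0.04, limma adjusted p = 0.31). Ppm1k, the phosphatase that opposes Bckdk, was near the floor, with values of 0.31, 0.30 and 0.28 in WT and 0.13, 0.40 and 0.16 in Sdc1-/-, below the minimum mean for a test. The ratio of kinase to phosphatase transcript was 266 ± 12.7 in WT and 420 ± 211 in Sdc1-/- (SD, n = 3 per group). The groups overlapped (two-sided exact permutation p = 0.4), and the highest and lowest ratios were those of the libraries with the lowest and highest Ppm1k.

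**Figure D2:**
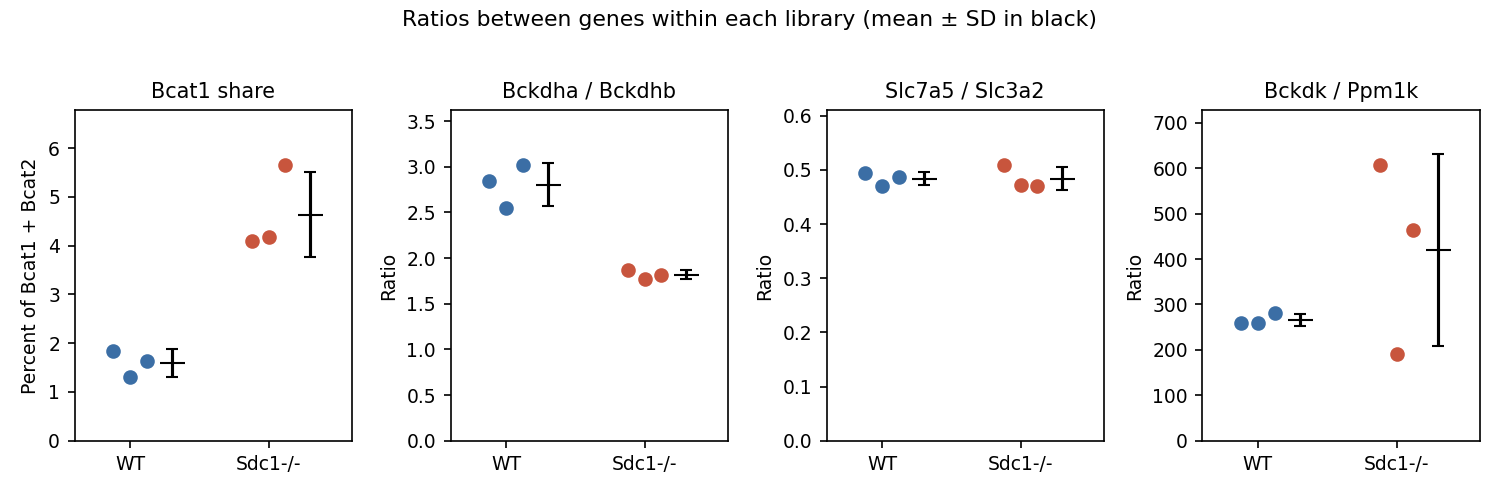
Ratios formed within each library for the 3 libraries labelled WT and the 3 labelled Sdc1-/-: the Bcat1 share of Bcat1 plus Bcat2 in percent, and the linear ratios Bckdha to Bckdhb, Slc7a5 to Slc3a2 and Bckdk to Ppm1k, on axes from 0. Points are libraries and black bars the mean ± SD. The first and the second separate the groups, the third sits near 0.484 in both, and the fourth is spread widely in Sdc1-/-.

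The transcripts for the transporter pair of LAT1 and CD98 held the highest levels of the set, and both fell by nearly the same amount. Slc7a5 (ENSMUSG00000040010, chromosome 8, 121881150 to 121907694, minus strand) read 118, 114 and 120 in WT and 93.6, 89.1 and 90.6 in Sdc1-/-, groups that stood 20.03 apart. Its log2 change was -0.36 ± 0.035 (SE), with a limma adjusted p of 1.3e-04. The annotated gene Gm20388 overlaps it on the opposite strand, at a mean of 16.7.

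Slc3a2 (ENSMUSG00000010095, chromosome 19, 8706882 to 8723369, minus strand) was higher, at 239, 242 and 246 in WT and 184, 188 and 193 in Sdc1-/-. Here too the groups did not overlap, with a gap of 46.0 between them. Its log2 change was -0.36 ± 0.030 (SE) as well, with a limma adjusted p of 6.7e-05. The ratio of Slc7a5 to Slc3a2 was 0.495, 0.470 and 0.487 in WT and 0.508, 0.473 and 0.470 in Sdc1-/-. The means were 0.484 ± 0.013 and 0.484 ± 0.021 (SD, n = 3 per group), and the groups overlapped (two-sided exact permutation p = 0.9). With each library left out in turn, the difference of the mean ratios lay between -0.013 and 0.0067.

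Slc43a1, the LAT3 carrier that needs no heavy chain (ENSMUSG00000027075, chromosome 2, 84838850 to 84863594, plus strand), was the transporter of the set that rose. It read 17.1, 17.0 and 17.5 in WT and 22.7, 22.3 and 22.2 in Sdc1-/-, with the lowest coefficient of variation of the 9 genes in both groups and a gap of 4.79. The means were 17.2 ± 0.26 and 22.4 ± 0.22 (SD, n = 3 per group), or 0.37 ± 0.034 (SE) in log2 units (limma adjusted p = 1.1e-04). The transcript level of Slc43a1 stayed well below that of Slc7a5 in both groups.

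The scaling between libraries moves all of these values together. After each library was divided to total 1000000, all genes tested had a median log2 fold change of 0.12 instead of -0.0097, and 30.9% of the calls instead of 51.7% were lower. Under that scaling Bcat1 stood at 0.88 and Slc43a1 at 0.51, and Bcat2, Bckdha, Slc7a5 and Slc3a2 stayed lower, at -0.24, -0.49, -0.21 and -0.21. Bckdhb and Bckdk turned to 0.11 and 0.10 and were called higher (limma adjusted p = 0.038 and 0.026), which is no more than the median of all genes. Dbt stood at -0.20 (limma adjusted p = 0.10). The 6 genes Bcat1, Bcat2, Bckdha, Slc7a5, Slc3a2 and Slc43a1 kept their direction and call in each of the alternatives in which they were tested, 13 for Bcat1 and 14 for the others.

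**Figure D3:**
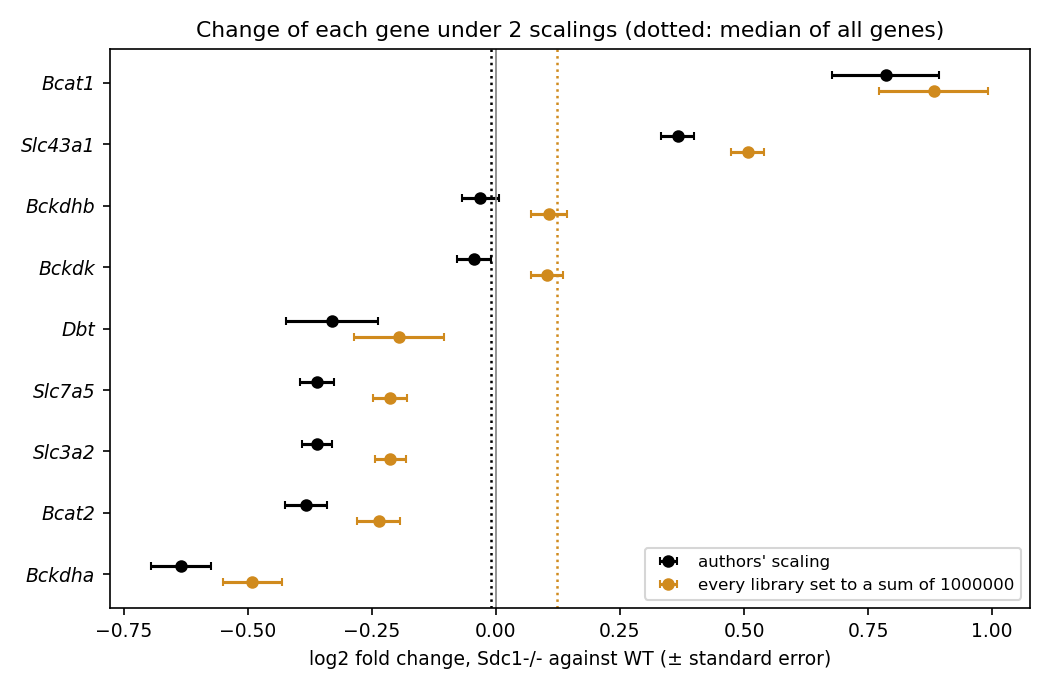
log2 fold change of each gene, libraries labelled Sdc1-/- against WT (points, with the standard error as bars), with the authors' scaling in black and with each library totalling 1000000 in orange. Dotted lines mark the median of all genes, -0.0097 and 0.12. The scalings shift the genes together, and Bckdhb and Bckdk lie close to the median in each.

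The list of later BCAA breakdown enzymes also held Dld and Ppm1k, partners of the dehydrogenase complex, and the carrier Slc25a44. Its share called was near that of all genes. Of 22 genes listed, 21 were tested, 4 were higher and 8 lower under the Sdc1-/- label. That was 57.1% called beside 60.7% of all genes, with a median log2 fold change of -0.018. Dld, named after its values were seen, was among the 8 lower, at -0.27 in log2 units (limma adjusted p = 0.0016). Pccb, the β chain of propionyl-CoA carboxylase on the isoleucine and valine routes, fell from 28.5 ± 0.53 to 20.1 ± 0.23 (SD, n = 3 per group), or -0.48 in log2 units (limma adjusted p = 3.1e-05). Acadsb, the short/branched-chain acyl-CoA dehydrogenase of isoleucine, and Hsd17b10, which acts later on that route, had log2 fold changes of -0.38 and -0.36. Mccc1, the α chain of methylcrotonyl-CoA carboxylase on the leucine route, rose from 10.3 ± 1.01 to 14.2 ± 1.34 (SD, n = 3 per group), or 0.42 in log2 units (limma adjusted p = 0.0053). With a sum of 1000000 per library, 10 of these genes were higher and 6 lower.

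Among 17 other amino acid transporters, 14 were tested, 3 were higher and 3 lower, 42.9% called beside 60.7% of all genes, with a median log2 fold change of -0.079. Slc7a8, which encodes LAT2, the other light chain of CD98 for large neutral amino acids, went from 33.95 ± 0.96 to 18.4 ± 0.10 (SD, n = 3 per group), or -0.85 in log2 units (limma adjusted p = 3.7e-06). Slc43a2, which encodes LAT4, a relative of Slc43a1, went from 7.77 ± 0.94 to 4.45 ± 0.48 (SD, n = 3 per group), or -0.69 in log2 units (limma adjusted p = 7.9e-04). Of other relatives, Slc7a6, Slc7a7 and Slc43a3, named after their values were seen, stood at -0.09, 0.005 and -0.10 in log2 units and were not called. Slc7a11, a further light chain of CD98, averaged 0.76 and 0.37, below the minimum for a test. The glutamine carriers Slc1a5 and Slc38a2, which supply the exchange substrate of LAT1, had log2 fold changes of 0.20 and 0.22 (limma adjusted p = 0.0067 and 0.0053). Slc6a15, named after its values were seen, was also called higher and had the largest rise among the tested genes of the list. It went from 1.72 ± 0.11 to 2.70 ± 0.55 (SD, n = 3 per group), or 0.43 in log2 units (limma adjusted p = 0.014). Slc1a4, likewise named after its values were seen, was called lower, at -0.31 in log2 units (limma adjusted p = 0.0025).

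Glutamate is the partner of the aminotransferases. Of 9 genes that make or use glutamate or 2-oxoglutarate, 1 was higher and 4 lower, 55.6% called beside 60.7% of all genes, with a median log2 fold change of -0.008. Glul, glutamine synthetase, fell from 194 ± 3.67 to 93.4 ± 5.19 (SD, n = 3 per group), or -1.05 in log2 units (limma adjusted p = 4.0e-06). Glud1, glutamate dehydrogenase, had a log2 fold change of -0.52 and Got2, the mitochondrial aspartate aminotransferase, one of -0.23. Ogdh, of the 2-oxoglutarate dehydrogenase complex, had one of 0.29. After each library was divided to total 1000000, 5 of the 9 were higher and 2 lower.

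Leucine sensing leads to mTORC1, the kinase complex that couples amino acid supply to growth. Of its 31 listed genes 29 were tested, 8 were higher and 9 lower, a share of 58.6% called beside 60.7% of all genes, with a median log2 fold change of -0.074. Mtor, the kinase, read 14.9 ± 0.52 in WT and 10.2 ± 0.37 in Sdc1-/- (SD, n = 3 per group), or -0.51 in log2 units (limma adjusted p = 1.1e-04). Lamtor4, of the lysosomal Ragulator, had a log2 fold change of -0.47. Nprl3, of the inhibitory GATOR1 complex, had one of -0.44 and Wdr24, of GATOR2, one of 0.42.

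ATF4, the transcription factor of the amino acid response, is known to act on Slc7a5 and Slc3a2. Of 20 genes listed for this response, 18 were tested, 3 were higher and 9 lower, 66.7% called beside 60.7% of all genes, with a median log2 fold change of -0.155. Atf4 itself stood at 150 ± 5.54 and 143 ± 2.86 (SD, n = 3 per group), not past the threshold (limma adjusted p = 0.14). Ddit4, an inhibitor of mTORC1, fell from 76.0 ± 1.77 to 38.0 ± 1.43 (SD, n = 3 per group), or -0.98 in log2 units (limma adjusted p = 3.1e-06), and Ddit3, the factor CHOP, had one of -0.46. Trib3, a pseudokinase and ATF4 target named after its values were seen, had the largest fall of the list, from 5.76 ± 0.28 to 1.79 ± 0.15 (SD, n = 3 per group). The most abundant genes of the list, Phgdh, Psat1 and Shmt2, were also named after their values were seen. They stood at -0.10, -0.04 and 0.10 in log2 units and were not called (limma adjusted p = 0.16, 0.39 and 0.12). Asns, likewise abundant and named afterwards, was called lower, at -0.36. Nupr1 and Eif2ak4, the latter the kinase GCN2 that senses uncharged tRNA, were higher, with log2 fold changes of 0.48 and 0.57. With a sum of 1000000 per library, 5 of the genes were higher and 5 lower.

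Of the 6 tRNA synthetases for leucine, isoleucine and valine, 2 were higher and 2 lower, 66.7% called beside 60.7% of all genes. Vars and Vars2, for valine in cytosol and mitochondria, had log2 fold changes of 0.24 and 0.29, and Iars2, the mitochondrial enzyme for isoleucine, one of -0.39. Lars2, for leucine in mitochondria, read 1608, 1440 and 1466 in WT and 936, 883 and 1371 in Sdc1-/-. Its mean over all libraries was 1284, far above that of the next highest of the 6, Vars, at 130. Lars, the cytosolic enzyme for leucine, averaged 55.5. The source of the high Lars2 values was not tested. The third library labelled Sdc1-/- lay near those labelled WT. Its log2 change, -0.53, reached a limma adjusted p of 0.023, and the call was lost without the first library labelled WT (-0.48) and without the first or the second labelled Sdc1-/- (-0.45 and -0.41).

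Among factors tied to Bcat1 or Slc7a5 in the literature, Msi2, the RNA-binding protein Musashi-2, read 32.8, 34.1 and 33.7 in WT and 39.0, 40.4 and 40.1 in Sdc1-/-. The groups did not overlap, and its log2 fold change was 0.24 (limma adjusted p = 7.0e-04). Myc and Mycn, of a family of E-box factors, had log2 fold changes of 0.18 and 1.03 (limma adjusted p = 0.0037 and 7.7e-06), Mycn from 6.10 ± 0.33 to 13.5 ± 0.44 (SD, n = 3 per group). Hif1a had a log2 fold change of -0.19 (limma adjusted p = 0.030), and its call was lost in 4 of the 6 fits that left out 1 library (the second or the third labelled WT, the first or the second labelled Sdc1-/-).

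**Figure D4:**
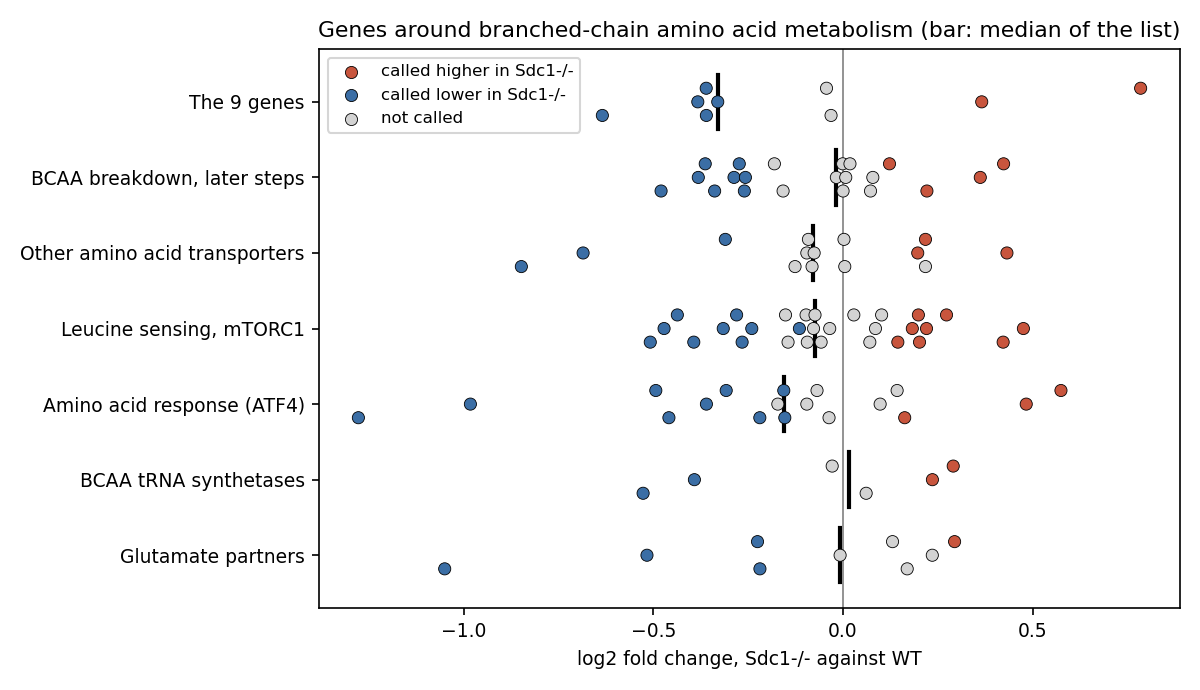
log2 fold change, libraries labelled Sdc1-/- against WT, of every tested gene in the set of 9 and in 6 lists around BCAA metabolism. Each point is a gene, red where called higher and blue where called lower (adjusted p under 0.05, limma), and bars mark the median of a list, from -0.33 for the 9 genes to 0.016 for the tRNA synthetases. Every list holds genes called in both directions.

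Over the 6 libraries, the genes whose log2 values followed those of Bcat1 most closely were Ep400, Ccnk and Kat14, with a Pearson r of 0.9956, 0.9955 and 0.9945 among 8966 genes that averaged 5 or more. The 6 points fall into the 2 labelled groups, and 682 genes had an r over 0.95, so such likeness is shared with every gene that separates the groups tightly and in the same direction.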

How the data were processed

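RNA-seq of Lin- bcCML cells was measured in 3 libraries labelled WT and 3 labelled Sdc1-/-, with groups and replicate numbers from the GEO titles. Libraries were made with a stranded mRNA kit. The authors assigned reads with kallisto, summarised them per gene and deposited a signal per gene and library, TPM rescaled between libraries. Per the labels, sleuth 0.30.0 and mm10 were used; the kallisto version, its strand setting and its transcriptome are not given in the sources used here. Depth is unknown, and the SD between libraries, technical replicates at least for WT, gives the precision. The second deposited table holds the authors' own test of the groups and was not used.

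Of the 36083 identifiers, 35454 had a symbol in GENCODE M21, which also gave gene positions (GRCm38). Genes averaging 1 or more over the 6 libraries (12155) were fitted as log2(value + 1) by group alone with limma 3.58.1 (R 4.3.3), whose prior variance followed the mean, and p-values were adjusted by Benjamini-Hochberg over all of them with a threshold of 0.05. The planned design assumed TPM and was kept for the rescaled values. Shares and ratios were compared with the exact two-sided permutation test. On simulated data with 200 of 12155 genes changed, 35% were called at a log2 fold change of 0.3, with 6 false calls. At a log2 fold change of 1, 95% were called, with 8 false calls, and with no change 0 were called. The data had a far larger share of genes called, 60.7%, so these rates do not carry over to the data. Alternatives were pseudocounts of 0.1 and 0.5, a minimum mean of 5 or none, a sum of 1000000 per library, quantile normalization, no variance trend, a replicate block, and each library left out. The members and lists were chosen with earlier results of these data known. Named from each list were the up to 4 called genes with the largest change at a mean of at least 5, with Ppm1k, Msi2 and Myc, and the 3 genes most like Bcat1; marker lists are given as lists with the most abundant member. Xist, listed with the sex-linked genes, was not found by its symbol and so was not analysed here. Python 3.11.15, pandas 2.3.3, scipy 1.17.1 and matplotlib 3.10.9 were used for the rest.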

Additional observations from a re-analysis of the deposited data

How the results depend on the processing

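Of 810 values recomputed for 60 results, 764 kept their direction and side of the threshold, or stayed within a set tolerance of size. The tolerance for counts was wide. With a sum of 1000000 per library, all genes called higher went from 3564 to 5290, which still counted as kept. So did the leucine sensing genes called higher, which went from 8 to 12. With a sum of 1000000 per library, 4 of the 9 genes were called higher, Bckdhb and Bckdk reversed to 0.11 and 0.10, Dbt was no longer called (-0.20), and 2367 of all genes were called lower in place of 3810. The genes called higher were then 10 of BCAA breakdown, 5 of the other transporters, 5 of the amino acid response (with 5 lower), 4 of the tRNA synthetases (1 lower) and 5 of the glutamate partners (2 lower), and 0 of the genes tied to Bcat1 or Slc7a5 were lower. A minimum mean of 5 left 1 of the 9 genes called higher, since Bcat1 then was not tested. Without a minimum mean the call of Dbt (-0.33) was lost, 1 tRNA synthetase was lower and 0 of the genes tied to Bcat1 or Slc7a5. Quantile normalization gave 1 lower tRNA synthetase and 2 higher glutamate partners, and no variance trend also 2. With each library left out, Dbt ran from -0.43 to -0.26, the lower tRNA synthetases from 1 to 2, the higher glutamate partners from 1 to 2 and the lower genes tied to Bcat1 or Slc7a5 from 0 to 1. With 1 added to each value, the difference of the Bckdk to Ppm1k ratios was 1.95 in place of 154. The cause of the other changes was not tested. The replicate numbers did not pair the libraries (correlations of the deviations of same-numbered libraries 0.15, -0.01 and 0.02, and not every library correlated best with its own number). The replicate block gave 3653 higher and 3971 lower genes and the same 2 higher and 5 lower of the 9. Read depth is unknown, so what it limits, above all for Bcat1 and Ppm1k, cannot be stated.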
